A study of Homo sapiens with 4 samples.

Results

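The genes described here are 35 genes of the NF-kB pathway and of the cytokines and chemokines that it controls, taken by name, with no threshold on a measured value. Of the 35 genes, 31 were among the 17755 genes that the authors' table lists. TNFRSF9, PTGS2, IL6 and IL1B were not listed, either by name or by Ensembl identifier, and the lowest mean level over the 4 libraries of a listed gene was 0.25 FPKM (fragments per kilobase of gene, scaled to the size of the library). The genes were measured by RNA-Seq in a pair of human melanoma cell lines, SK-MEL-28 and A375. Cells of each line were transfected with a control siRNA (siNC) or with siRNA against LINC00622 (siLINC00622), a long non-coding RNA. All cells, controls included, spent 6 h in medium without serum and then 24 h in medium with serum. There was 1 library for each of the 4 combinations of line and siRNA, so a difference between siLINC00622 and siNC within a line has no replicate check. The question was which genes responded to loss of LINC00622.

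NF-kB is a family of dimeric transcription factors that are held inactive in the cytoplasm by inhibitors of the IkB family. Receptors for TNF, interleukin-1 and bacterial products activate kinases that lead to the breakdown of these inhibitors, and the freed dimers enter the nucleus and bind kB sites. Their targets include chemokines and cytokines as well as their own inhibitors, so the pathway switches itself off again. In melanoma, CXCL1 and CXCL8 are known as factors that tumor cells secrete and that act on the tumor cells themselves as well as on neutrophils and vessels.

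Library totals were between 31269923 and 36384819 counts. Within a line, counts were scaled by the TMM method, and changes are given as log2(siLINC00622/siNC), computed with a prior count of 2 and shown with the 95% Clopper-Pearson interval. These intervals cover counting error only and not the spread between cultures. Reads without molecular identifiers are not independent molecules, so the intervals can be too narrow even for counting error. LINC00622 itself had 309 counts in SK-MEL-28 siNC cells and 135 in siLINC00622 cells (log2 ratio -1.21, interval -1.53 to -0.93). For A375 the counts were 135 and 86 (log2 ratio -0.84, interval -1.27 to -0.46). Its level was thus lower in the siLINC00622 library of both lines. The 8 melanocyte markers (among them PMEL, MLANA and SOX10) summed to between 2061 and 2210 FPKM in SK-MEL-28 and between 133 and 166 FPKM in A375, and all 8 were listed. Most of the A375 sum was SOX10, at 118 and 149 FPKM with siNC and siLINC00622. PMEL was at 2.24 and 2.35 FPKM and MLANA at 0.98 and 0.88 FPKM in A375. Of 10 leukocyte markers 3 were listed (LYZ, FCER1G and LAPTM5). They summed to between 1.2 and 1.3 FPKM in SK-MEL-28 and between 3.89 and 4.09 FPKM in A375, while PTPRC, CD14, AIF1, CD3E, CD79A, ITGAM and CSF1R were not listed. Of 8 fibroblast and endothelial markers only LUM was listed, at 9.08 and 9.77 FPKM in SK-MEL-28 and 2.24 and 3.83 FPKM in A375 with siNC and siLINC00622.

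The secreted members differed more between the lines than the other members did. Their median log2 difference of SK-MEL-28 minus A375 was -4.04, beside -0.47 for the other members and -0.04 for all genes. This median draws on CXCL2, CXCL3, CCL2, IL18, IL11 and IL1A, which were under 0.25 FPKM in both SK-MEL-28 libraries. That is below the lowest mean of a listed gene, so they could be listed only through A375. The 5 chemokines CXCL1, CXCL2, CXCL3, CXCL8 and CCL2, which attract neutrophils or, for CCL2, monocytes, summed to 11 FPKM with siNC and 3.82 FPKM with siLINC00622 in SK-MEL-28. In A375 the same sums were 65.3 and 53.6 FPKM. The 6 listed cytokines IL11, LIF, IL1A, IL18, IL24 and CSF1 summed to 4.78 and 2.74 FPKM in SK-MEL-28 and to 73.8 and 80.5 FPKM in A375. Every A375 sum was thus above every SK-MEL-28 sum. Together the 11 secreted members held 1291 and 592 counts in the SK-MEL-28 libraries and 9754 and 10868 counts in the A375 libraries. In bulk RNA, fewer cells that express a gene and less RNA per cell cannot be told apart.

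**Figure D1:**
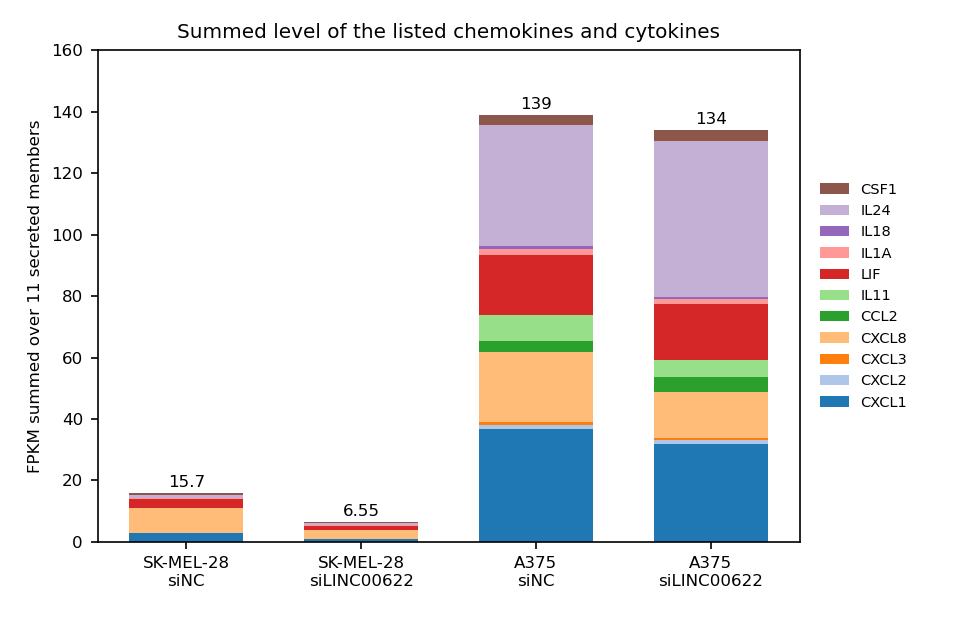
FPKM of the 11 listed chemokines and cytokines, stacked by gene, in each of the 4 libraries (1 library per bar, no error bars). The bars of SK-MEL-28 reach 15.7 with siNC and 6.55 with siLINC00622, and those of A375 reach 139 and 134, mostly IL24, CXCL1, CXCL8 and LIF.

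The lines were compared in 1 edgeR quasi-likelihood fit over the 4 libraries with a term for the line and a term for the treatment, which leaves 1 residual degree of freedom among the libraries. The p-values were adjusted by the Benjamini-Hochberg method over 16742 genes. No condition has more than 1 library, so these p-values do not measure the spread between replicate cultures. The spread they rest on is how far the difference between the siRNAs departs between the lines, together with technical variation. Of the 31 listed members 23 (74.2%) were higher in A375 and 5 (16.1%) were higher in SK-MEL-28 at an adjusted p below 0.05. Over all genes tested, 34.4% were higher in A375 and 33.3% were higher in SK-MEL-28. Differences between the lines were thus common, and a line difference is not particular to the members named below. All 11 listed secreted members were among the 23. Of the 23, CXCL2, CXCL3, CCL2, IL18, IL11, IL1A and BIRC3 were under 0.25 FPKM in both SK-MEL-28 libraries. With the lowest mean of a listed gene at 0.25 FPKM, these genes could be listed only through A375. Their direction was thus set by the listing and adds no support. The levels of LYZ and LAPTM5, leukocyte markers, were also higher in A375. FCER1G, the other listed leukocyte marker, was not called between the lines. Its log2 difference of SK-MEL-28 minus A375 was 0.20 (SE 0.27, adjusted p = 0.537 by edgeR). PTPRC and CD14, markers of leukocytes and monocytes, were not listed, and the part of other cell types in the difference was not tested.

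IL24, a cytokine of the IL10 family that was found in differentiating melanoma cells, had the highest level of the cytokines in A375. It was at 0.885 and 0.592 FPKM with siNC and siLINC00622 in SK-MEL-28 and at 39.7 and 50.9 FPKM in A375. The log2 difference of SK-MEL-28 minus A375 in the fit was -5.76 (SE 0.22, adjusted p = 1.41e-06 by edgeR), a level 54.2-fold higher in A375. The A375 values lay far above both SK-MEL-28 values. LIF, which signals through LIFR and IL6ST and keeps some stem cells undifferentiated, was at 2.82 and 1.38 FPKM in SK-MEL-28 and at 19.6 and 18 FPKM in A375. Its log2 difference was -3.05 (SE 0.21, adjusted p = 2.22e-05 by edgeR). IL11, a relative of LIF that uses the same co-receptor, was at 0.158 and 0.0874 FPKM in SK-MEL-28 and at 8.66 and 5.68 FPKM in A375. For IL11 the difference was -5.69 (SE 0.22, adjusted p = 1.57e-06 by edgeR). The direction for IL11 was set in advance by the listing, since it was under 0.25 FPKM in both SK-MEL-28 libraries.

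CSF1, the growth factor of macrophages, was at 0.657 and 0.469 FPKM in SK-MEL-28 and at 3.19 and 3.44 FPKM in A375. IL1A, an alarmin that activates NF-kB through the interleukin-1 receptor, was at 0.210 and 0.160 FPKM in SK-MEL-28 and at 1.95 and 1.84 FPKM in A375. IL18, which is activated by the inflammasome, had 4 counts in each SK-MEL-28 library and 59 counts in each A375 library. All 3 were higher in A375 in the fit, by 5.27-fold for CSF1, 9.08-fold for IL1A and 12.7-fold for IL18.

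Among the chemokines, CXCL1 was at 2.97 and 0.967 FPKM in SK-MEL-28 and at 36.6 and 32 FPKM in A375. CXCL8 (interleukin-8) was at 7.89 and 2.77 FPKM in SK-MEL-28 and at 22.8 and 14.9 FPKM in A375. The log2 difference between the lines was -4.04 for CXCL1 (SE 0.30, adjusted p = 2.79e-05) and -1.78 for CXCL8 (SE 0.21, adjusted p = 0.000261) in the edgeR fit. CXCL8 had the smallest line difference of the secreted members. CXCL2 and CXCL3, close relatives of CXCL1, were near the limit of detection in SK-MEL-28. CXCL2 had 0 and 1 counts there and 63 and 62 counts in A375, and the ratio of A375 over SK-MEL-28 of the counts summed over both libraries and scaled by library size was 111 (counting interval 19.5 to 4402). CXCL3 had 1 and 2 counts in SK-MEL-28 and 63 and 59 counts in A375, a ratio of 36.0 (counting interval 12 to 177). CCL2 had 5 and 2 counts in SK-MEL-28 and 217 and 346 counts in A375, a ratio of 71.1 (counting interval 34.3 to 178). These intervals are wide. The counts of each gene were higher in both A375 libraries, which the listing set in advance for these genes. CXCL1, CXCL2 and CXCL3 are alike in sequence, so reads could be split between them by the counting.

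**Figure D2:**
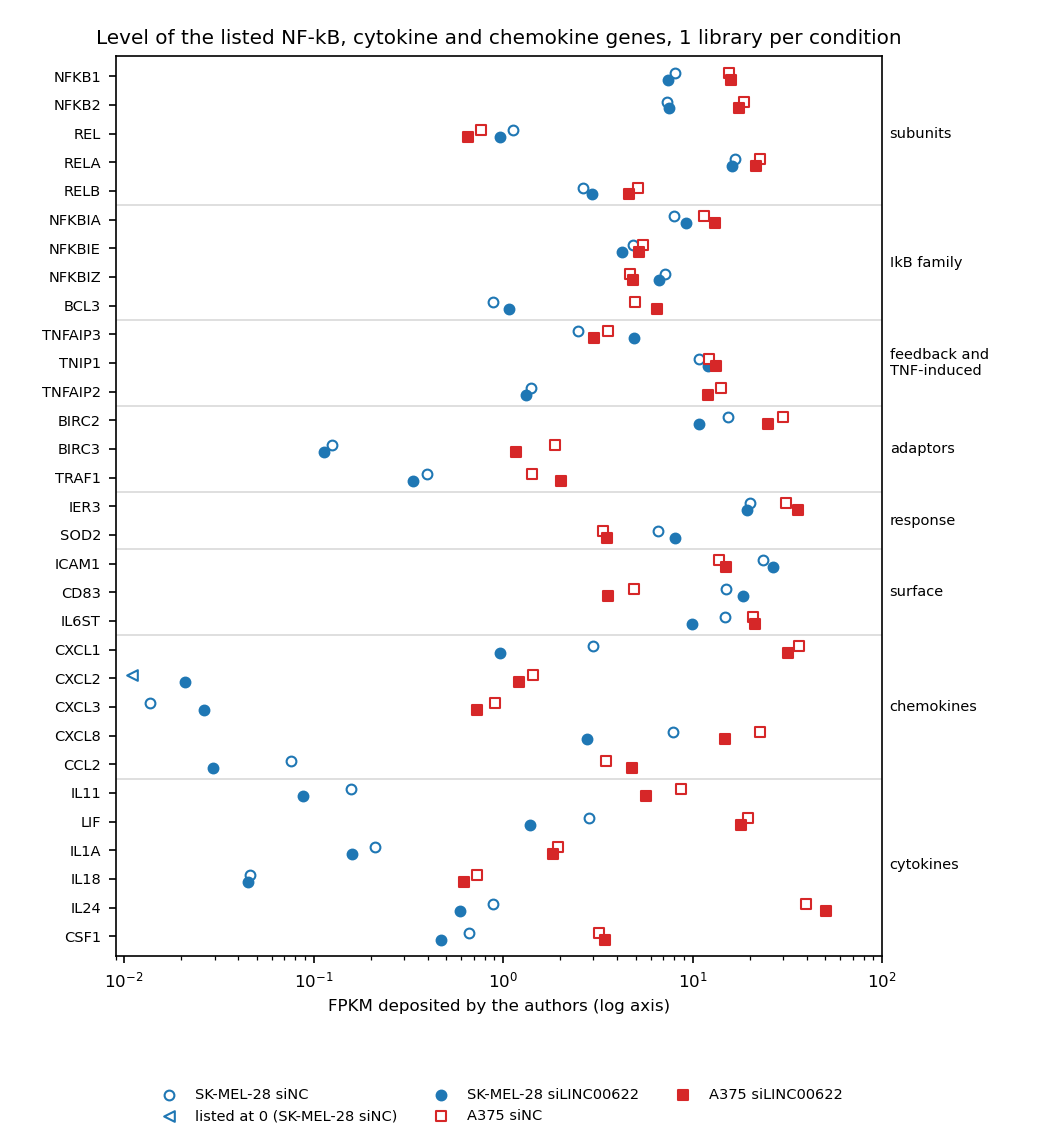
FPKM of the 31 listed members (log axis), with 1 point per library, open for siNC and filled for siLINC00622. The chemokines and cytokines of A375 (red squares) lie to the right of those of SK-MEL-28 (blue circles) in every row, whereas those of the subunits lie closer together, and the CXCL2 value of SK-MEL-28 siNC, listed at 0, is drawn as a triangle at the left edge.

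The NF-kB subunits differed less. RELA, the main activating subunit, was at 16.8 and 16.2 FPKM with siNC and siLINC00622 in SK-MEL-28 and at 22.7 and 21.6 FPKM in A375, a difference of 1.19-fold (adjusted p = 0.0371 by edgeR). NFKB1, the precursor of p50, was at 8.11 and 7.41 FPKM in SK-MEL-28 and at 15.5 and 16 FPKM in A375. NFKB2, the precursor of p52 in the non-canonical pathway, was at 7.34 and 7.49 FPKM in SK-MEL-28 and at 18.6 and 17.6 FPKM in A375. These subunits were higher in A375, NFKB1 by 1.81-fold (adjusted p = 0.000243) and NFKB2 by 2.17-fold (adjusted p = 6.01e-05) in the edgeR fit. RELB, the partner of p52, was at 2.64 and 2.95 FPKM in SK-MEL-28 and at 5.15 and 4.64 FPKM in A375, which was 1.55-fold higher in A375. With DESeq2 the differences of RELA and RELB were not called. REL, the subunit best known from lymphocytes, went the other way. It was at 1.13 and 0.962 FPKM in SK-MEL-28 and at 0.762 and 0.653 FPKM in A375, and was 1.66-fold higher in SK-MEL-28 (adjusted p = 0.00265 by edgeR). By level per length, the order in both lines was RELA first and REL last, with NFKB1 and NFKB2 next to each other.

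Of the 4 members of the IkB family, 2 were higher in A375 and 1 in SK-MEL-28, beside 34.4% and 33.3% of all genes tested. BCL3, an atypical IkB protein that acts with p50 and p52 in the nucleus, was at 0.888 and 1.08 FPKM in SK-MEL-28 and at 4.96 and 6.47 FPKM in A375, or 5.15-fold higher in A375 (adjusted p = 1.79e-05 by edgeR). NFKBIA, which encodes IkB alpha, was at 8.02 and 9.28 FPKM in SK-MEL-28 and at 11.5 and 13.1 FPKM in A375. NFKBIZ, a nuclear IkB protein needed for a subset of the targets, was at 7.15 and 6.67 FPKM in SK-MEL-28 and at 4.70 and 4.87 FPKM in A375. NFKBIA differed by 1.27-fold toward A375 (not called by DESeq2) and NFKBIZ by 1.62-fold toward SK-MEL-28. NFKBIE, which encodes IkB epsilon, was at 4.83 and 4.23 FPKM in SK-MEL-28 and at 5.45 and 5.22 FPKM in A375 and was not called (adjusted p = 0.669 by edgeR).

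Feedback proteins and adaptors varied among themselves. TNFAIP2, a TNF-induced protein, was at 1.4 and 1.31 FPKM in SK-MEL-28 and at 14.2 and 12.1 FPKM in A375, with a log2 difference of -3.10 (SE 0.11, adjusted p = 1.26e-06 by edgeR). BIRC3 (cIAP2), a ubiquitin ligase of the TNF receptor complex, was at 0.125 and 0.113 FPKM in SK-MEL-28 and at 1.89 and 1.17 FPKM in A375. TRAF1, an adaptor bound by these ligases, was at 0.398 and 0.334 FPKM in SK-MEL-28 and at 1.41 and 2.03 FPKM in A375. All 3 were low in SK-MEL-28, and the fit put BIRC3 at 11.2-fold and TRAF1 at 4.14-fold higher in A375. BIRC2 (cIAP1), the relative of BIRC3, was high in both lines, at 15.4 and 10.8 FPKM in SK-MEL-28 and at 30.0 and 25.1 FPKM in A375, and was 1.89-fold higher in A375. TNIP1, which brings the A20 protein to its substrates, was at 10.8 and 12.1 FPKM in SK-MEL-28 and at 12.2 and 13.4 FPKM in A375 and was not called (adjusted p = 0.912 by edgeR).

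Of the genes that carry out the response or lie at the cell surface, 3 of the 5 listed were higher in SK-MEL-28. The share over all genes tested was 33.3%. CD83, a surface protein of the immunoglobulin family best known from mature dendritic cells, was at 15.1 and 18.5 FPKM in SK-MEL-28 and at 4.94 and 3.57 FPKM in A375, which was 4.47-fold higher in SK-MEL-28 (adjusted p = 5.54e-05 by edgeR). ICAM1, the adhesion molecule that leukocyte integrins bind, was at 23.6 and 26.7 FPKM in SK-MEL-28 and at 13.7 and 15.1 FPKM in A375. SOD2, the superoxide dismutase of mitochondria, was at 6.59 and 8.05 FPKM in SK-MEL-28 and at 3.38 and 3.53 FPKM in A375. ICAM1 was 1.96-fold and SOD2 2.37-fold higher in SK-MEL-28. Exons of SOD2 overlap those of WTAP, which lies on the opposite strand, and the library kit of the study's methods does not mark strand. IER3, an early response gene that protects from TNF-induced death, was at 20.2 and 19.4 FPKM in SK-MEL-28 and at 31.3 and 36.1 FPKM in A375. IL6ST (gp130), the co-receptor that IL6, IL11 and LIF share, was at 14.8 and 9.97 FPKM in SK-MEL-28 and at 20.8 and 21.2 FPKM in A375. Both were higher in A375, IER3 by 1.51-fold and IL6ST by 1.54-fold.

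**Figure D3:**
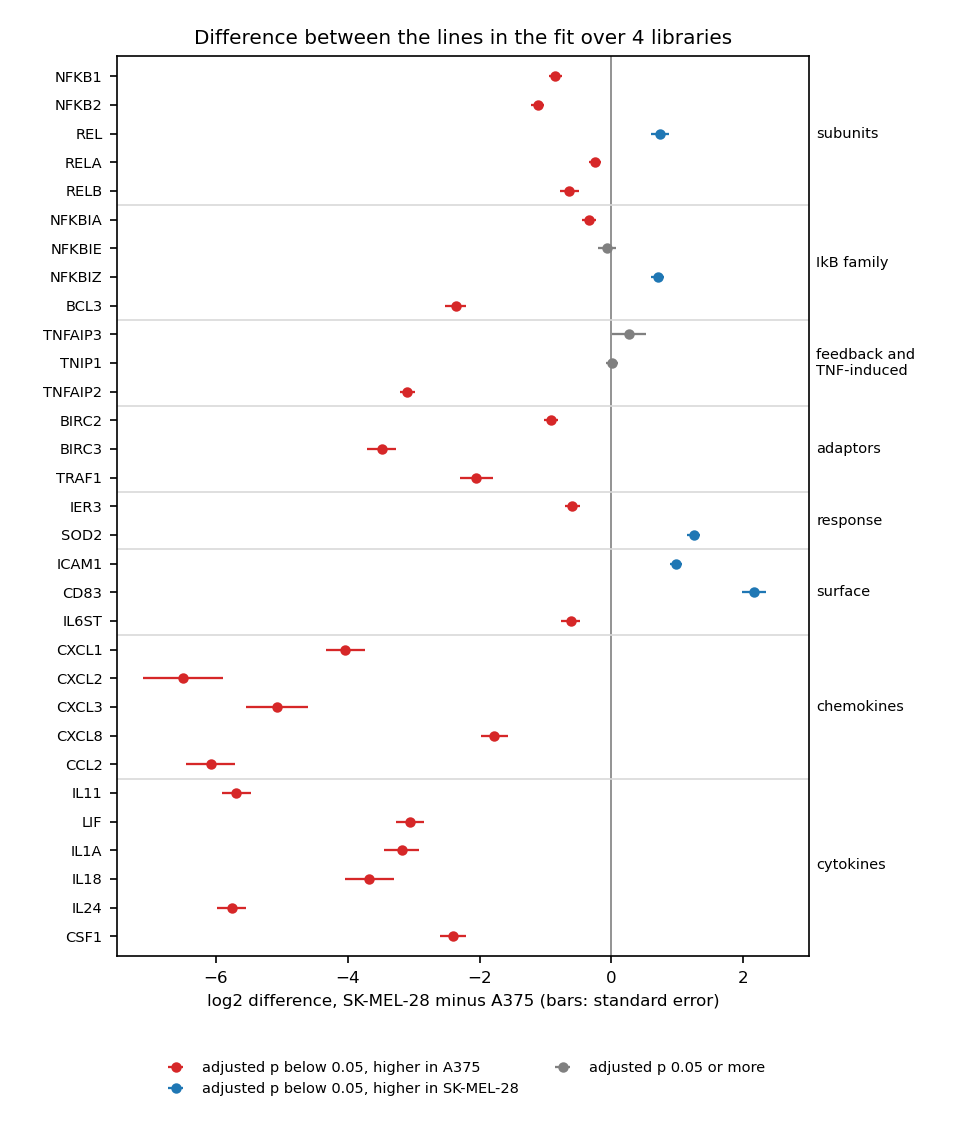
Log2 difference of SK-MEL-28 minus A375 for the 31 listed members in the edgeR fit over the 4 libraries, with bars for the standard error. Points left of 0 are higher in A375 (23 red points with an adjusted p below 0.05, the lowest CXCL2 at -6.49), and the 5 blue points on the right are REL, NFKBIZ, SOD2, ICAM1 and CD83, up to 2.16 for CD83.

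With siLINC00622, the members that differed most in SK-MEL-28 were secreted factors at lower levels and the feedback gene TNFAIP3 at a higher level. A gene was counted as changed within a line when its ratio was above 1.5-fold (0.58 on the log2 scale) and 1 of the libraries of the line held 10 or more counts of it. In SK-MEL-28, 27 members had these counts, of which 4 (14.8%) were lower with siLINC00622 and 1 (3.70%) was higher. Of all 15442 genes with these counts in SK-MEL-28, 6.49% were lower and 4.56% were higher. In A375, 31 members had these counts, of which 3 (9.68%) were lower and 0 were higher, beside 4.34% lower and 4.52% higher of 16021 genes. The members had a median log2 ratio of -0.12 in SK-MEL-28, beside -0.004 for all genes. In A375 the medians were -0.07 and 0.004. With a limit of 2-fold, 0 members were lower in A375 and 0 were higher in SK-MEL-28, and with FPKM and a pseudocount of 1, 0 were lower in A375. These counts describe pairs of libraries and carry no test.

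In SK-MEL-28, CXCL1 had 134 counts with siNC and 45 counts with siLINC00622. In A375 it had 1560 and 1586 counts. Its log2 ratio was -1.56 in SK-MEL-28 (interval -2.13 to -1.11), or 2.96-fold lower, and -0.19 in A375 (interval -0.29 to -0.08). The lower level was thus large in the line where CXCL1 was scarce and small in the line where it was abundant. The ratios of the lines differed by -1.38 (counting interval -1.88 to -0.88), a difference that could not be tested with 1 library per condition.

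CXCL8 had 585 and 212 counts in SK-MEL-28 and 1597 and 1213 counts in A375 with siNC and siLINC00622. Its ratio was -1.49 in SK-MEL-28 (interval -1.73 to -1.27), or 2.80-fold lower, and -0.61 in A375 (interval -0.72 to -0.50), or 1.52-fold lower. CXCL8 and IL11 were the members past the limit in both lines. For CXCL8 the change common to the lines was -0.99 in the edgeR fit (SE 0.20, adjusted p = 0.110), which was not called, whereas DESeq2 with the same terms gave an adjusted p of 0.0124. IL11 had 14 and 8 counts in SK-MEL-28, too few to tell its ratio of -0.70 from no change by counting alone (interval -2.30 to 0.51). In A375 it had 725 and 553 counts, a ratio of -0.60 (interval -0.76 to -0.44), just past the limit. Its common change was -0.61 (SE 0.19, adjusted p = 0.216 by edgeR).

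LIF, at chr22:30240447-30246851 in GENCODE 29 (GRCh38), had 362 and 183 counts in SK-MEL-28 and 2369 and 2535 counts in A375. The ratio was -1.01 in SK-MEL-28 (interval -1.28 to -0.76), or 2.01-fold lower, and -0.11 in A375 (interval -0.19 to -0.03). As with CXCL1, the lower level was seen mainly in SK-MEL-28, and the ratios of the lines differed by -0.90 (counting interval -1.16 to -0.63). The antisense gene LIF-AS2, which overlaps exons of LIF, had 3 and 4 counts in SK-MEL-28 and 41 and 42 counts in A375. CSF1 had 114 and 84 counts in SK-MEL-28 and 523 and 656 counts in A375, with ratios of -0.46 (interval -0.90 to -0.05) and 0.12 (interval -0.05 to 0.29). IL24 had 58 and 40 counts in SK-MEL-28 and 2455 and 3664 counts in A375, with ratios of -0.54 (interval -1.19 to 0.04) and 0.37 (interval 0.29 to 0.44). Neither passed the limit in either line. IL1A had 14 and 11 counts in SK-MEL-28 and 123 and 135 counts in A375, and its intervals held 0 in both lines.

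All 7 secreted members with enough counts in SK-MEL-28 had negative ratios, with a median of -0.70. This median was the ratio of IL11, and the intervals of IL11, IL24 and IL1A held 0 there. Of the 20 other members 11 had negative ratios, and their median was -0.04. Of all genes with enough counts, 7800 of 15442 had negative ratios. In A375, 8 of the 11 secreted members had negative ratios, with a median of -0.19. CXCL2, CXCL3 and IL18 in A375 had ratios of -0.23, -0.29 and -0.20, with intervals that held 0. CCL2 went the other way in A375, from 217 to 346 counts, a ratio of 0.46 (interval 0.21 to 0.72), which stayed within the limit.

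TNFAIP3, at chr6:137867188-137883312 in GENCODE 29 (GRCh38), encodes A20, a ubiquitin-editing enzyme that is induced by NF-kB and ends its activation. In SK-MEL-28 it had 415 counts with siNC and 841 counts with siLINC00622, 1.98-fold higher (log2 ratio 0.98, interval 0.82 to 1.16). In A375 it had 564 and 554 counts, a ratio of -0.23 (interval -0.41 to -0.06). The SK-MEL-28 siLINC00622 library was thus the highest of the 4, at 4.90 FPKM beside 2.49, 3.59 and 3.03 FPKM in the others. The ratios of the lines differed by 1.22 (counting interval 0.98 to 1.46), and the change common to the lines was 0.39 (SE 0.26, adjusted p = 0.561 by edgeR). The antisense gene WAKMAR2 overlaps exons of TNFAIP3 and had 61 and 77 counts in SK-MEL-28 and 34 and 40 counts in A375, far fewer than TNFAIP3. CD83 was the other member whose ratios had opposite signs with both intervals away from 0. Its counts were 1191 and 1509 in SK-MEL-28 and 368 and 310 counts in A375, with ratios of 0.31 (interval 0.20 to 0.42) and -0.45 (interval -0.68 to -0.24), both within the limit.

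In A375, BIRC3 was the third member past the limit. It had 444 and 321 counts there, a ratio of -0.67 (interval -0.89 to -0.47), or 1.60-fold lower, and 31 and 29 counts in SK-MEL-28, a ratio of -0.12 (interval -0.91 to 0.65). Its relative BIRC2 was lower in both lines without passing the limit, with 2309 and 1667 counts in SK-MEL-28 and 4246 and 4138 counts in A375 and ratios of -0.50 (interval -0.59 to -0.41) and -0.25 (interval -0.31 to -0.18). The change of BIRC2 common to the lines was -0.36 (SE 0.10, adjusted p = 0.188 by edgeR). TRAF1 was higher in A375, with 198 and 331 counts and a ratio of 0.53 (interval 0.27 to 0.79), and lower in SK-MEL-28, with 59 and 51 counts and a ratio of -0.23 (interval -0.81 to 0.32). IL6ST came close to the limit in SK-MEL-28, with 4963 and 3446 counts and a ratio of -0.56 (interval -0.62 to -0.49). In A375 it had 6587 and 7821 counts and a ratio of 0.04 (interval -0.01 to 0.09).

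The subunits and the members of the IkB family stayed within 1.5-fold in both lines. Ratios of the 5 subunits ran from -0.21 for REL to 0.17 for RELB in SK-MEL-28 and from -0.21 for REL to 0.05 for NFKB1 in A375. RELA, whose exons overlap those of the divergent transcript RELA-DT (66 to 119 counts), had 3037 and 3027 counts in SK-MEL-28 and 3874 and 4282 counts in A375, with ratios of -0.04 (interval -0.11 to 0.04) and -0.07. In the IkB family, NFKBIA had ratios of 0.22 and 0.19 and BCL3 of 0.29 and 0.39 in SK-MEL-28 and A375. Those of NFKBIE were -0.18 and -0.05 and those of NFKBIZ were -0.09 and 0.06. TNIP1, ICAM1 and SOD2 had ratios of 0.18, 0.19 and 0.30 in SK-MEL-28 and of 0.14, 0.14 and 0.07 in A375, while IER3 had ratios of -0.04 and 0.21 and TNFAIP2 of -0.07 and -0.22.

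**Figure D4:**
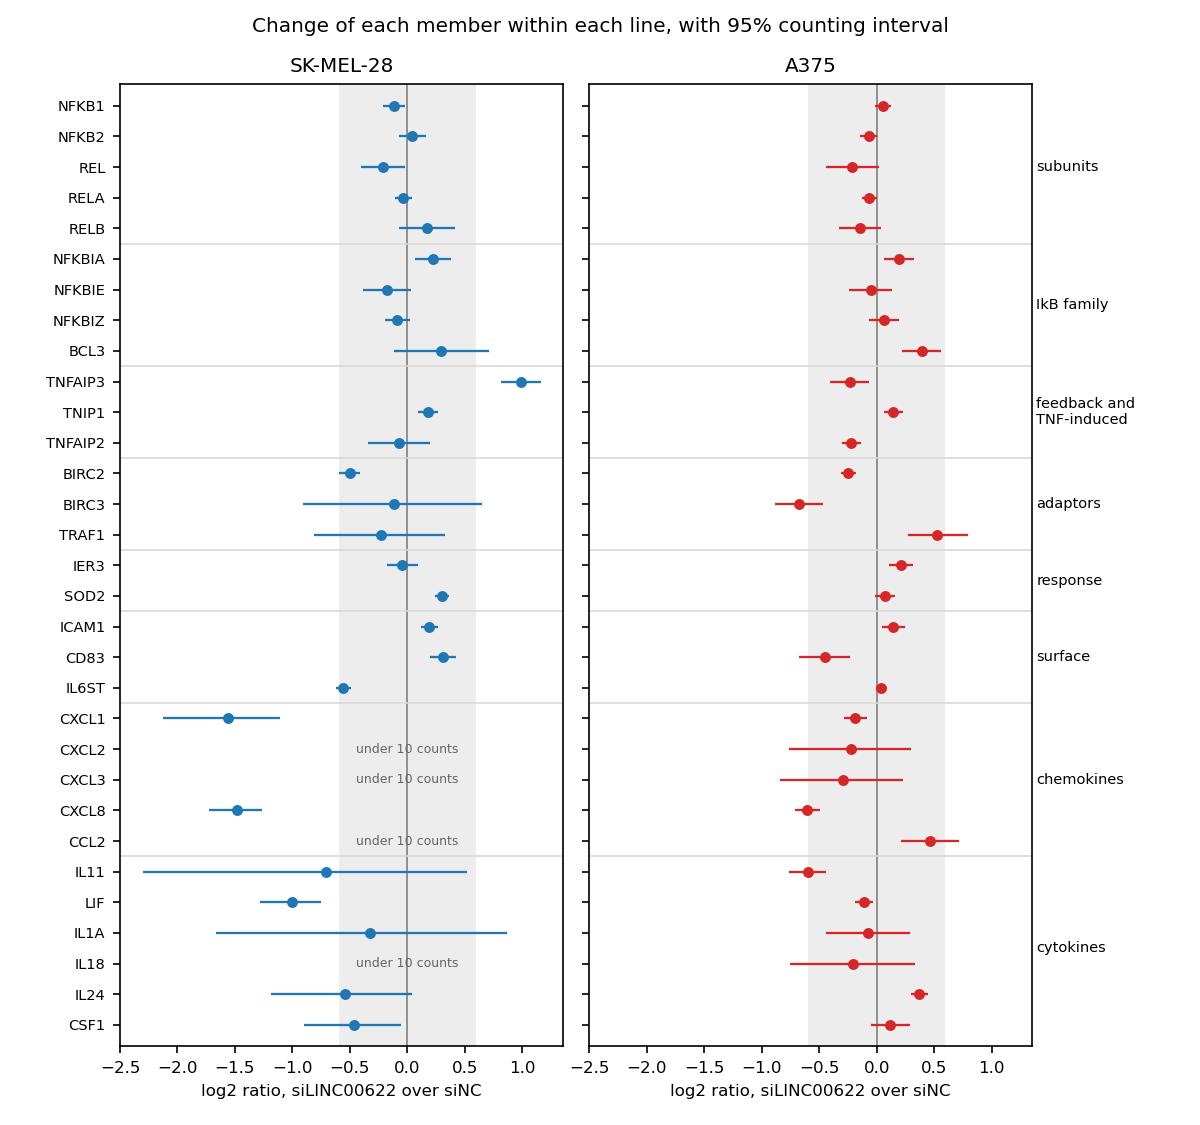
Log2 ratio of siLINC00622 over siNC in SK-MEL-28 (left) and A375 (right) for each listed member, with 95% Clopper-Pearson counting intervals and the range within 1.5-fold shaded. CXCL1, CXCL8, LIF and IL11 lie left of the shaded range and TNFAIP3 (0.98) right of it in SK-MEL-28, and CXCL8, IL11 and BIRC3 lie left of it in A375.

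In the fit over both lines, 0 of the 31 listed members were called for the treatment by edgeR at an adjusted p below 0.05, in either direction. Of all 16742 genes, 0.197% were called higher and 0.251% lower. At an unadjusted p below 0.05 there were 3 members (9.68%), BIRC2, CXCL8 and IL11, all lower with siLINC00622. Of all genes 2432 of 16742 reached this in either direction, and 7.11% were lower. DESeq2 gave an adjusted p for 18 members and called 1 of them lower, CXCL8, beside 1.81% of 8952 genes. A change found in 1 line alone, such as that of TNFAIP3, enters this fit as spread.

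The promoters of several members carry kB motifs close to the start of transcription. Shown are the 4 CXCL genes, of which CXCL1 and CXCL8 passed the limit of 1.5-fold in at least 1 line, TNFAIP3 and BIRC3, which passed it in 1 line each, and NFKBIA and NFKB1, which did not. The sequences are 60 bases from the RefSeq promoter windows (GRCh38.p14), 5′ to 3′ on the strand of the gene, with a match to the kB motif in capitals. RefSeq windows of 300 bases, from 250 before to 50 after the start, were matched by symbol for 28 of the 35 members. The CXCL genes lie within 1 cluster on chromosome 4, where GENCODE 29 (GRCh38) places CXCL8 at chr4:73740506-73743716, CXCL1 at chr4:73869393-73871242, CXCL3 at chr4:74036589-74038807 and CXCL2 at chr4:74097035-74099293.
CXCL1, chr4:73869289-73869348, plus strand: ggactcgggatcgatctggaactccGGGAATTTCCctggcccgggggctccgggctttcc
CXCL2, chr4:74099239-74099298, minus strand: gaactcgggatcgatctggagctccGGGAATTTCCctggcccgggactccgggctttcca
CXCL3, chr4:74038734-74038793, minus strand: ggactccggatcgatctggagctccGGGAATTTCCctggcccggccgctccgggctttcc
CXCL8, chr4:73740453-73740512, plus strand: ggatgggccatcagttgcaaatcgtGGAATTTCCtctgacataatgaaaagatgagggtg
TNFAIP3, chr6:137867167-137867226, plus strand: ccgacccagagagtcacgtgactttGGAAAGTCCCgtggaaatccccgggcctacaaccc
BIRC3, chr11:102317260-102317319, plus strand: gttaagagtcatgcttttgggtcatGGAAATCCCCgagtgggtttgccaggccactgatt
NFKBIA, chr14:35404796-35404855, minus strand: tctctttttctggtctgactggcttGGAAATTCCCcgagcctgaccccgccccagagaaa
NFKB1, chr4:102501285-102501344, plus strand: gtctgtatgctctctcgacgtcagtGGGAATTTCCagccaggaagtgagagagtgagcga

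The capitals of the CXCL1, CXCL2 and CXCL3 promoters are the same letters, 79, 78 and 79 bases before the start. CXCL8 lacks the full motif in its window and holds the core GGAATTTCC, which begins 91 bases before the start. The kB consensus of 10 letters, searched on both strands, was found in 10 of the 24 listed members with a window (41.7%) and in 6.74% of the 15534 promoters of listed genes. These members were NFKB1, REL, NFKBIA, NFKBIZ, BCL3, TNFAIP3, BIRC3, CXCL1, CXCL2 and CXCL3. The core of 9 letters, which the consensus matches can contain, was found in 9 of the 24 (37.5%). It was found in 0.399% of the promoters of listed genes. The core was chosen after the sequences were seen, so its share in the members was set by that choice. Since the members were taken by name as genes of the NF-kB pathway, neither share is a test. The part of the matches in the ratios was not tested. In SK-MEL-28, CXCL1 was lower and TNFAIP3 higher with siLINC00622 with a match in both promoters, and NFKB1 and NFKBIA, also with a match, stayed within 1.5-fold. A match is a description of the sequence, and no binding was measured.

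The messages were also searched for TATTTAT, a word of AU-rich elements through which many cytokine messages are degraded. In the longest 3′ UTR of each gene in GENCODE 29, it was found in 17 of the 31 listed members (54.8%) and in 36.0% of 12383 listed genes with a 3′ UTR. The median 3′ UTR was 1252 bases long in the members and 1627 in the genes at large. The word was found in 9 of the 11 secreted members, in all but CCL2 and IL18, and in 8 of the 20 others. CXCL2 held it 8 times, IL11 7 times, LIF 5 times and CXCL1 and CXCL8 4 times each. IER3 and REL also held it 4 times and SOD2 3 times, with ratios of -0.04, -0.21 and 0.30 in SK-MEL-28, and TNFAIP3 held it 1 time. The part of this word in the ratios was not tested.

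The siRNAs against LINC00622 could also pair with other messages through their seeds, and the sources used here do not name which of the listed siRNAs was used for the sequenced cells. GTGAGAA, the word that pairs with bases 2 to 8 of the guide strand of the first siRNA, was found in the 3′ UTR of 7 listed members (22.6%), beside 16.1% of listed genes. They were REL, NFKBIE, BIRC2, BIRC3, SOD2, IL6ST and IL11. ATTGACT, the word of the second siRNA, was found in SOD2 and IL6ST (6.45% of members, beside 12.5% of listed genes). CXCL1, CXCL8, LIF and TNFAIP3 held neither word. The part of seed pairing in the lower ratios of BIRC2, BIRC3, IL6ST and IL11 was not tested.

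Few of the genes that signal toward NF-kB differed by more than 1.5-fold. Of 37 such genes 33 were listed, and in SK-MEL-28 1 of 32 was higher by more than 1.5-fold and 0 were lower, while in A375 0 of 33 passed the limit. The 1 gene, named after its values were seen, was TRAF5, an adaptor of TNF receptors, with 664 and 1051 counts and a ratio of 0.63 in SK-MEL-28. The most abundant were IRAK1, a kinase of the interleukin-1 and Toll-like receptors, with ratios of 0.17 and -0.04 in SK-MEL-28 and A375, and TNFRSF1A, the main TNF receptor, with 0.01 and 0.15. They were followed by LTBR, the lymphotoxin receptor, with 0.43 and 0.10, NFKBIB, which encodes IkB beta, with 0.42 and 0.04, and RBCK1, a part of the linear ubiquitin ligase, with 0.12 and 0.19. The list had a median ratio of -0.0004 in SK-MEL-28, and of 0.02 in A375 cells. Between the lines 9 of these genes were called higher in A375 and 8 higher in SK-MEL-28, beside 34.4% and 33.3% of all genes tested.

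Of 42 other genes known as NF-kB targets 26 were listed. In SK-MEL-28 2 of 22 were higher (GADD45B and STX11) and 3 lower (IL7R, IRF1 and PLAUR), and in A375 2 of 26 were higher (CXCL16 and IL32) and 3 lower (GADD45B, PTX3 and BCL2A1). These names were taken after the values were seen. GADD45B, a stress gene that restrains cell death, had 194 and 440 counts in SK-MEL-28 (ratio 1.14) and 456 and 317 in A375 (ratio -0.73), opposite in sign as for TNFAIP3. IL7R, the receptor of interleukin-7, had 85 and 34 counts in SK-MEL-28 (ratio -1.30) and 2446 and 2652 in A375 (ratio -0.09). Secreted genes of this list did not all fall in SK-MEL-28. CCL20 had 269 and 266 counts there (ratio -0.05), CX3CL1 610 and 702 (ratio 0.17) and CXCL16 147 and 131 (ratio -0.19). CCL20 and CX3CL1 were higher in SK-MEL-28, with log2 differences of 2.85 and 5.52, and CXCL16 was not called. CSF2, IL32, PTX3, SAA1, C3 and MMP9 were higher in A375. These were under 0.25 FPKM in SK-MEL-28, and CX3CL1 in A375, so the listing set their direction. By abundance, CD44 had ratios of -0.29 and -0.04, SDC4 of -0.36 and -0.18, EHD1 of 0.44 and 0.24, BCL2A1 of -0.06 and -0.80 and BCL2L1 of 0.10 and 0.12 in SK-MEL-28 and A375. Of the 26 genes, 14 were called higher in A375 and 6 higher in SK-MEL-28, beside 34.4% and 33.3% of all genes tested.

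Receptors and binding partners of the members' ligands were mostly not listed, with 8 of 20 in the table. IL6R, the receptor of IL6, had 1972 and 3752 counts in SK-MEL-28 and 680 and 1360 counts in A375. Its ratio was 0.90 (interval 0.82 to 0.98) in SK-MEL-28 and 0.79 (interval 0.66 to 0.93) in A375. Both siLINC00622 libraries thus lay above the siNC library of their line, and the common change of 0.85 was called (SE 0.10, adjusted p = 0.0398 by edgeR). IL6, its ligand, was not listed. OSMR, the oncostatin M receptor, had ratios of 0.18 and 0.34, LIFR of 0.33 and 0.27, IL1RAP of -0.04 and -0.05 and IL18BP of 0.11 and -0.01 in SK-MEL-28 and A375, and none of these was called. IL22RA1, a receptor chain used by IL24, was lower in SK-MEL-28 alone by the limit, with 61 and 39 counts and a ratio of -0.65, and is named after its value was seen. The receptors of CXCL1 and CXCL8, CXCR1 and CXCR2, were not listed. LIFR and OSMR were higher in A375, with log2 differences of -5.10 and -2.72, and IL6R and IL1RAP were higher in SK-MEL-28, with differences of 1.68 and 2.72.

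Of 14 interferon response genes 10 were listed, and 0 passed the limit in either line. They had a median ratio of -0.17 in SK-MEL-28, and of 0.07 in A375 cells. ISG15, a ubiquitin-like protein induced by interferon, had ratios of -0.05 and 0.01, IFIT3 of -0.27 and 0.14, IRF7 of -0.10 and -0.37 and IFIH1 of -0.13 and -0.08. Between the lines 7 were called higher in SK-MEL-28 and 1 higher in A375, beside 33.3% and 34.4% of all genes tested. RIPK2 and IL1RAP stand in more than 1 of these lists.

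**Figure D5:**
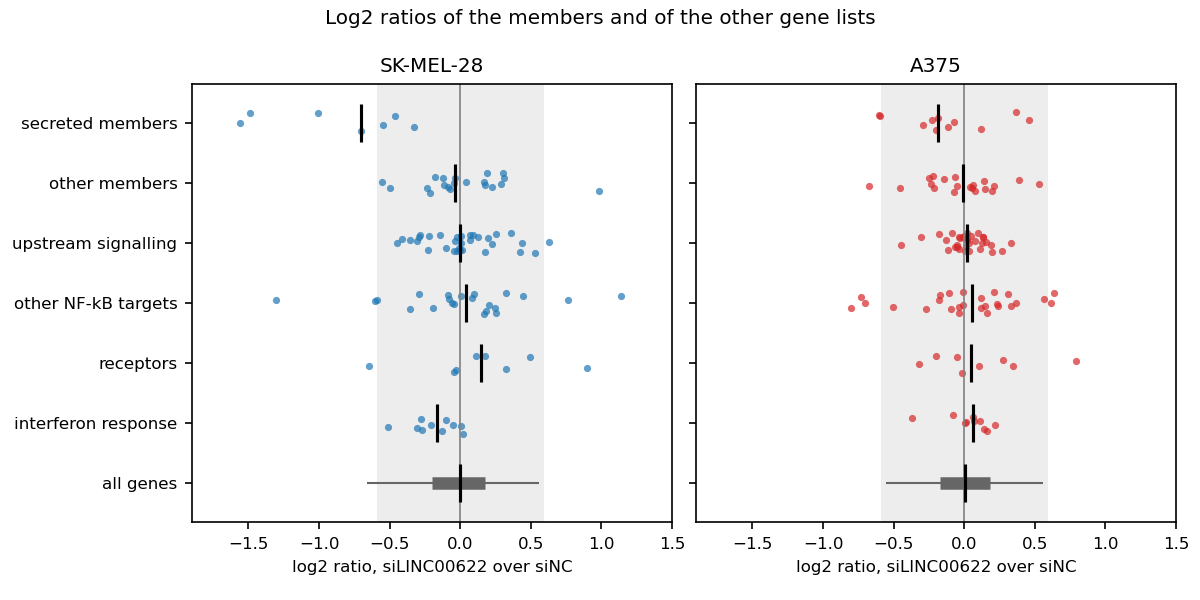
Log2 ratios of siLINC00622 over siNC in SK-MEL-28 (left) and A375 (right) for the secreted members, the other members and the other gene lists, with 1 point per gene (spread up and down at random), a black bar at the median and the range within 1.5-fold shaded. The row of all genes shows percentiles 5 to 95 (line) and 25 to 75 (thick bar). The points of all 7 secreted members in SK-MEL-28 lie left of 0, down to -1.56 for CXCL1, and those of the 10 interferon response genes lie within the shaded range in both lines.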

How the data were processed

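Poly(A) RNA of 4 libraries was sequenced as paired-end reads. The authors deposited 1 table with counts (whole reads per gene, not normalized), CPM (counts scaled to the library total), FPKM (also scaled by gene length) and TPM (not used). The submitters' processing notes name HISAT2, TopHat2, Bowtie2, HISAT and hg19. Their roles, the counting and the annotation are not given in the sources used here. Samples were grouped by the line and treatment in the labels. The members, lists and tests were chosen with earlier results of these data known.

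Ratios within a line used TMM scaling in edgeR 4.0.16 (R 4.3.3). Fits over both lines used edgeR's quasi-likelihood test on genes with at least 10 counts in 1 library, with DESeq2 1.42.0 as an alternative, and sequences were searched with Python 3.11.15. Scripts were tested on simulated data. All listed members are named. Of each other list, at most 5 genes are named, first those past the limit in both lines or called, then by FPKM, and 1 gene under this rule is not reported here. Genes behind a count of 5 or fewer, and the secreted genes among the other NF-kB targets, were also named, after their values were seen. Alternatives covered scaling, prior count, count minimum, fold limit, FPKM with a pseudocount of 1, the study's criteria (at a fixed dispersion of 0.1) and the test.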

Additional observations from a re-analysis of the deposited data

Results flagged for a closer look

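For 2 of the 27 members with enough counts in both lines, the log2 ratios of siLINC00622 over siNC had opposite signs in the lines, with both counting intervals away from 0. The log2 ratio of TNFAIP3 was 0.98 in SK-MEL-28 but -0.23 in A375, and that of CD83 was 0.31 in SK-MEL-28 but -0.45 in A375. The difference between the lines was not tested, since each line has 1 library per condition. Of all 14721 genes with enough counts in both lines, 942 (6.40%) had such ratios.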

How the results depend on the processing

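Of 68 counts of members under other settings, 61 stayed within 1.5 times the reported count. The 1 member higher in SK-MEL-28 (TNFAIP3) became 0 with a fold limit of 2 and 0 with the criteria of the study, which left 2 lower there (CXCL1 and CXCL8). The 3 members lower in A375 became 0 with a fold limit of 2, 0 with the criteria of the study and 0 with FPKM and a pseudocount of 1. With DESeq2, 1 member (CXCL8) was called lower for the treatment. When the counting interval also had to leave out 0, an alternative chosen after seeing the data, 3 members were lower in SK-MEL-28, without IL11. Of 461 ratios within a line, 456 stayed within their counting interval. The other 5, all with FPKM and a pseudocount of 1, were 0.76 for TNFAIP3, -1.01 for CXCL1, -1.24 for CXCL8 and -0.68 for LIF in SK-MEL-28 and -0.41 for BIRC3 in A375. The cause of these changes was not tested beyond what the limits themselves set.

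Signs changed only near 0 or without a call. The treatment change turned to 0.00255 for NFKB2 and 0.00307 for NFKBIZ with DESeq2, to 0.00204 and 0.00237 with its size factors in edgeR, and to -0.00424 for RELB with library totals. The line difference of TNIP1 turned to -0.16 with library totals and -0.00140 with at least 50 counts. RELA, RELB and NFKBIA lost their line call with DESeq2. Scaling by library totals shifted the median line difference of all genes by -0.17 and raised the share of calls higher in A375 from 50.8% to 59.5%, while 23 and 5 members were called as before. Leaving out a library was not possible within a line, and in the fit over both lines it would leave 0 residual degrees of freedom. Genes near 10 counts, such as IL11 in SK-MEL-28, are limited by depth.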
